A study of Mus musculus with 6 samples.

Results

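The expression of 8 enzymes of cholesterol biosynthesis was examined in irradiated mouse thalamus: Hmgcs1, Idi1, Fdps, Fdft1, Sqle, Lss, Cyp51 and Dhcr7. The enzymes were chosen by name from the 21899 genes of the counts, by their known place in the mevalonate and sterol pathway. Earlier results of these data were known when they were chosen. All 8 passed the filter on low counts, among 14956 genes that did. Fitted log2 fold changes of RN over RC ran from -0.33 to 0.00 and were below 0 for 7 of the 8 enzymes, and 0 of the 8 passed the threshold of a call, which asked for an adjusted p under 0.05 together with a change of 2-fold or more.

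Cells make cholesterol from acetyl-CoA. The mevalonate arm builds isoprenoid units, prenyl transferases join them into farnesyl diphosphate, squalene is made and folded into lanosterol, and the sterol arm trims lanosterol to cholesterol. When membrane sterol is low, the transcription factor SREBP2 is released and raises most of these genes together. Because plasma cholesterol hardly crosses the blood-brain barrier, the brain makes its own. Oligodendrocytes need much of it for myelin, and astrocytes make it and export it on apolipoprotein E to neurons.

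The samples were thalamus tissue of wild-type male C57BL/6J mice, aged 8 to 10 weeks when bought, with 3 mice in each of 2 groups. The tissue came from beneath the hippocampus in a coronal section, and the side taken is not stated. Every mouse had received a single gamma dose of 50 Gy to the left thalamus and, 2 weeks later, 2 µL of an adeno-associated virus of serotype 9 into the thalamus. RC mice (radiation and control virus) received GFAP104::tdTomato, which drives a red fluorescent protein from an astrocyte promoter. RN mice (radiation and ND1 virus) received GFAP104::mND1-tdTomato, which adds mouse NeuroD1, a neurogenic transcription factor. Tissue was taken 6 weeks after irradiation, after perfusion with saline. The comparison of RN with RC asks what the NeuroD1 virus changed in mice that were irradiated and injected in both groups. In such bulk tissue, fewer cells of a type and less RNA per cell cannot be told apart.

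The 6 libraries held between 16561663 and 18657015 counted reads. Neurod1, the gene the RN virus carries, was at 4.71, 5.44 and 5.16 counts scaled to library size (CPM) in RC replicates 1 to 3 and at 66.8, 91.5 and 50.9 CPM in RN replicates 1 to 3, so the libraries matched their labels. Markers of thalamic neurons were present in every library, summing to between 789.7 and 1647 CPM in RC and between 577 and 1140.0 CPM in RN. Markers of neighbouring structures were also present, in amounts that differed between libraries. Whether the dissection or the virus set these amounts was not tested. The 9 choroid plexus markers summed to between 316 and 8362 CPM in RC and between 58.7 and 137 CPM in RN, and the 9 tested of 10 hypothalamic markers to between 36.7 and 227 CPM in RC and between 303 and 469.5 CPM in RN.

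Promoter sequence shows what the enzymes share upstream of transcription. RefSeq promoter windows (build GRCm38.p6, 250 bases before to 50 after each start) were at hand for 5 of the 8 genes, Hmgcs1, Idi1, Lss, Cyp51 and Dhcr7, in 7 windows, 3 of them for Dhcr7. Of these 5 genes, 1 held TCACNCCAC, core letters of a sterol regulatory element, a type of site that SREBP binds. Elements of other spelling were not searched, so a window without these letters may still hold a site. All 5 held CCAAT, the letters bound by NF-Y, though only 1 of the 3 Dhcr7 windows did, and all 5 held GGGCGG, the letters bound by Sp1 factors. The searches covered both strands and the motifs share no bases in the matches shown. For scale, of all 27025 genes with a window in the table, 1.436% held TCACNCCAC in at least 1 window, 41.06% held CCAAT and 38.2% held GGGCGG. The 250 bases before the start are shown for Hmgcs1, whose window held the sterol element, for Idi1 and Lss, whose groups did not overlap in expression, and for the last of the Dhcr7 windows, the enzyme whose estimate lay nearest 0. All 4 lie on the plus strand, at chr13:119690101-119690350 (Hmgcs1), chr13:8885356-8885605 (Idi1), chr10:76531355-76531604 (Lss) and chr7:143829964-143830213 (Dhcr7). Capitals mark TCACNCCAC and CCAAT on either strand, so that ATTGG is CCAAT of the opposite strand.
Hmgcs1: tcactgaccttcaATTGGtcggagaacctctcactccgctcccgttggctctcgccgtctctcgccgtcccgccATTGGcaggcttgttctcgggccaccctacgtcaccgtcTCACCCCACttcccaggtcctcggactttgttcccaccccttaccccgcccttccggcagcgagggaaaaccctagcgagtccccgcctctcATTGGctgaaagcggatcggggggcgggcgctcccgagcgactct
Idi1: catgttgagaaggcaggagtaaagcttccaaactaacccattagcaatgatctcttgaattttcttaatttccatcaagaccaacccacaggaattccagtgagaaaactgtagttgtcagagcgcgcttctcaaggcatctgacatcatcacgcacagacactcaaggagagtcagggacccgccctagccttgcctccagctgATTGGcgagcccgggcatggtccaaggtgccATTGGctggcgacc
Lss: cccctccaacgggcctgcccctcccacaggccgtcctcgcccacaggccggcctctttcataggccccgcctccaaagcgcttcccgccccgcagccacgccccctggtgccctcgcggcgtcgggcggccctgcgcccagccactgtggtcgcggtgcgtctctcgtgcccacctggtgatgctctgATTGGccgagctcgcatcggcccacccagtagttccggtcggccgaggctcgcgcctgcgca
Dhcr7: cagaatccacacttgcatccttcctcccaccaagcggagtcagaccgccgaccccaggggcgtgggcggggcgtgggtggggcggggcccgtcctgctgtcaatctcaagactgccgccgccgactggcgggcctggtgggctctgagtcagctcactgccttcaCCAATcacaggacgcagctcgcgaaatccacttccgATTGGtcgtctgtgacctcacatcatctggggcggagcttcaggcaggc

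The sterol element of Hmgcs1, TCACCCCAC, lay at bases -137 to -129 from the start. In the same window CCAAT of the opposite strand ended at base -172 on one side of it and began at base -45 on the other. Idi1 had CCAAT of the opposite strand at bases -45 to -41 and -14 to -10, and Lss at bases -62 to -58. The Dhcr7 window had it on the sense strand at bases -85 to -81 and on the opposite strand at bases -49 to -45. These are letter matches, and no binding was measured in these tissues.

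Hmgcs1, the cytosolic HMG-CoA synthase, makes HMG-CoA, from which mevalonate is formed. It was at 197, 165 and 183 CPM in RC replicates 1 to 3 and at 165, 162 and 139 CPM in RN replicates 1 to 3. RC replicate 2 and RN replicate 1 nearly coincided, RC replicate 2 being the lower, so the groups overlapped. The log2 fold change of RN over RC was -0.22 (SE 0.104, adjusted p = 0.460, edgeR), which is a difference of -14.4% with a 95% confidence interval from -27.4% to 1.03%.

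Idi1 isomerises isopentenyl diphosphate to dimethylallyl diphosphate, the pair of units from which all isoprenoids are built. It was at 40.7, 33.5 and 40.1 CPM in the RC mice and at 32.3, 33.0 and 25.5 CPM in the RN mice, replicates 1 to 3 in order. All RN mice lay below all RC mice, though the nearest mice, RC replicate 2 and RN replicate 2, were close to each other. The fitted log2 fold change of -0.33 (SE 0.134, adjusted p = 0.384, edgeR) was the farthest from 0 among the 8 enzymes, a difference of -20.5% with an interval from -35.8% to -1.55%.

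Fdps, farnesyl diphosphate synthase, joins these units into the last intermediate that sterols share with protein prenylation, ubiquinone and dolichol. It was at 48.0, 46.6 and 51.3 CPM in RC mice against 40.5, 41.8 and 39.98 CPM in RN mice. The groups did not overlap, and the RN mice lay close together, at 40.7 ± 0.921 CPM (SD, n = 3) against 48.6 ± 2.45 CPM in RC (SD, n = 3). The log2 fold change was -0.26 (SE 0.0843, adjusted p = 0.266, edgeR), the smallest adjusted p among the 8, and the interval of the difference ran from -26.8% to -4.21%.

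**Figure D1:**
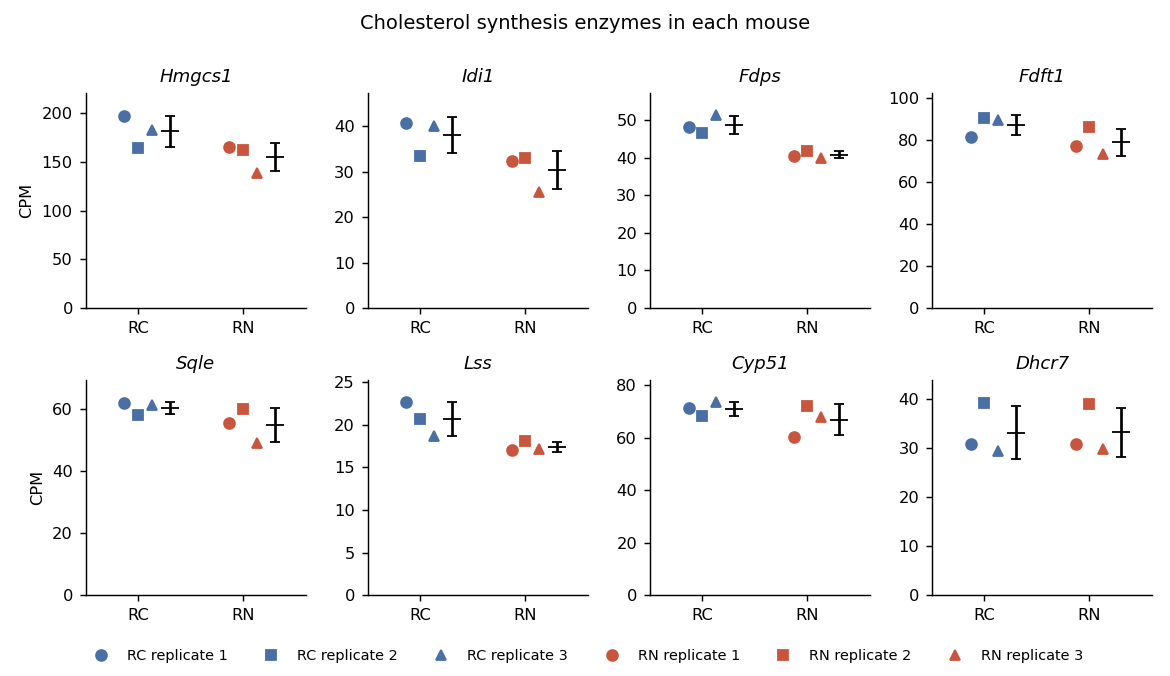
Library-scaled counts (CPM, vertical axes from 0) of the 8 enzymes in each of the 3 RC (blue) and 3 RN (red) mice, in pathway order, with marker shapes for replicates 1 to 3 and a black bar for the mean ± SD. RN lies wholly below RC for Idi1, Fdps and Lss, and RC and RN replicate 2 are both high for Dhcr7.

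Fdft1, squalene synthase, takes farnesyl diphosphate into the sterol branch. It was at 81.7, 90.5 and 89.6 CPM in the RC mice and at 77.4, 86.2 and 73.4 CPM in the RN mice, and RN replicate 2 lay above RC replicate 1. The log2 fold change was -0.14 (SE 0.0937, adjusted p = 0.634, edgeR). Exons of Fdft1 overlap those of Ctsb, a lysosomal protease gene on the opposite strand, over 774 bases, and whether strand was used in counting is not given in the sources used here. Sqle, squalene epoxidase, adds the oxygen that becomes the hydroxyl of cholesterol. It was at 61.7, 58.1 and 61.1 CPM in RC mice against 55.6, 59.9 and 48.9 CPM in RN mice, with RN replicate 2 inside the RC range and a log2 fold change of -0.14 (SE 0.0977, adjusted p = 0.670, edgeR).

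Lss, lanosterol synthase, closes the ring system and was the lowest of the 8 enzymes per kilobase of annotated exon. It was at 22.7, 20.7 and 18.7 CPM in the RC mice and at 17.0, 18.1 and 17.2 CPM in the RN mice. The groups did not overlap, but RC replicate 3 and RN replicate 2 were 18.7 and 18.1 CPM. The log2 fold change was -0.25 (SE 0.123, adjusted p = 0.498, edgeR), with an interval of the difference from -30.6% to 2.56%.

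The 2 enzymes that act after lanosterol had the estimates nearest 0. Cyp51, lanosterol 14-alpha-demethylase, was at 71.1, 68.1 and 73.7 CPM in RC mice against 60.4, 72.2 and 67.8 CPM in RN mice, a log2 fold change of -0.09 (SE 0.0935, adjusted p = 0.806, edgeR). Only RN replicate 1 lay well below the RC mice, and RN replicate 2 lay above 2 of them. Exons of Cyp51 overlap those of Akap9 on the opposite strand over 166 bases. Dhcr7, which reduces 7-dehydrocholesterol in the last step of one route to cholesterol, was at 30.8, 39.2 and 29.3 CPM in the RC mice and at 30.8, 38.9 and 29.8 CPM in the RN mice. Its log2 fold change was 0.00 (SE 0.152, adjusted p = 0.995, edgeR), and the 95% interval of its difference ran from -21.3% to 27.8%. With the replicate number as a block the interval ran from -13.4% to 16.2%. In both groups replicate 2 was high and the other 2 mice were close together.

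Of the 8 enzymes, edgeR called 0 higher and 0 lower, against 0.0602% and 0.0134% of all tested genes. By unadjusted p under 0.05, 2 of the 8 (Fdps and Idi1) were lower and 0 were higher, against 6.33% and 5.44% of all tested genes. In 3 of the 8 (Fdps, Idi1 and Lss) every RN mouse lay below every RC mouse, and in 0 the reverse held, against 8.12% and 8.18% of all tested genes. DESeq2's Wald test also called 0 of the 8 and had 2 of them under an unadjusted p of 0.05. By that test 179 of all 14956 tested genes were called and 1733 had such a p, in either direction. The median log2 fold change of the 8 was -0.18, where all tested genes had a median of 0.00 and quartiles of -0.14 and 0.13. The 95% confidence interval of each of the 8 lay within a 2-fold change in either direction, as it did for 12140 of all 14956 tested genes.

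Single mice moved these counts. Without RC replicate 3 or without RN replicate 3, 0 of the 8 had an unadjusted p under 0.05. Without RC replicate 1 only 1 did, and without RC replicate 2 there were 3, all lower in RN. Over all tested genes the shares lower at that p were 6.52%, 4.91%, 6.81% and 5.55% in these fits, in order. Without RN replicate 2, the RN mouse with the highest levels of most of these enzymes, all remaining RN mice lay below all RC mice in 6 of the 8 enzymes, and without RC replicate 2 in 5. Groups of fewer mice separate more often, and the same held for 13.6% and 12.7% of all genes tested. Those shares are not limited to genes in which the mouse left out lay nearest the other group.

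**Figure D2:**
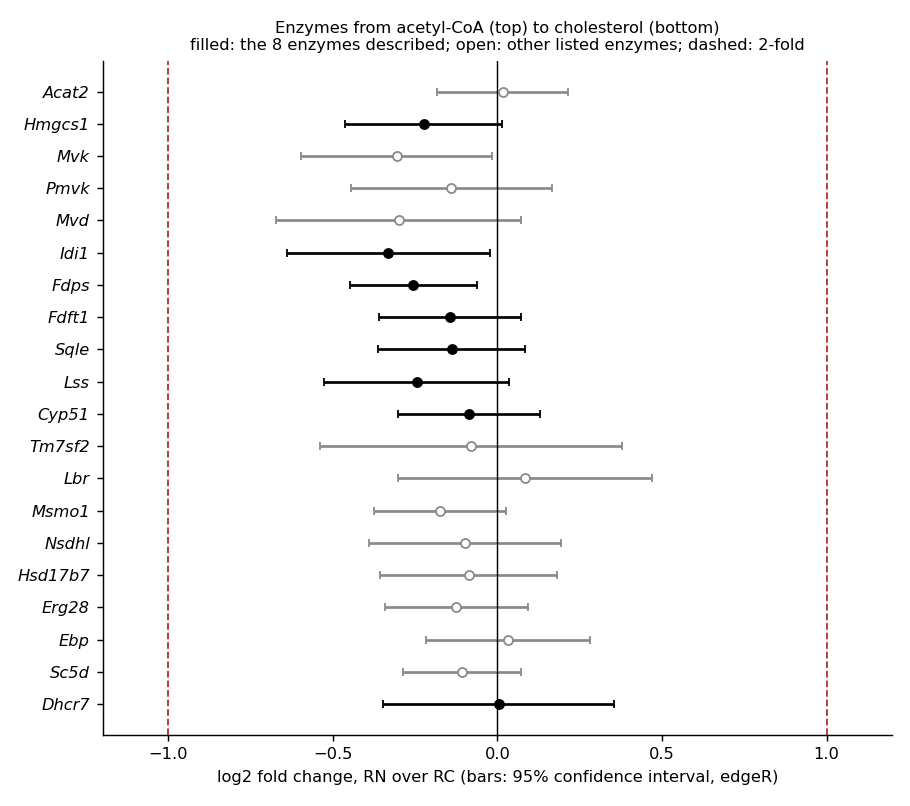
Log2 fold change of RN over RC (horizontal axis) with its 95% confidence interval from edgeR for 20 enzymes, ordered from acetyl-CoA at the top to cholesterol at the bottom. The 8 enzymes described are filled, and all intervals lie inside the dashed lines at a 2-fold change.

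The rest of the pathway was read from a list of 12 further enzymes. All 12 were tested, 0 were called, and 9 had log2 fold changes below 0, with a median of -0.10 and a range from -0.31 to 0.08. Mvk, mevalonate kinase, stood lowest at -0.31 (SE 0.126, adjusted p = 0.394, edgeR), with 19.3, 20.1 and 20.8 CPM in the RC mice, 17.0, 17.3 and 14.4 CPM in the RN mice and no overlap. Mvk was the only 1 of the 12 with an unadjusted p under 0.05, where 6.33% of all tested genes were lower at that p. Mvd, the decarboxylase that yields isopentenyl diphosphate, was at -0.30 (adjusted p = 0.546, edgeR) with overlapping groups.

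Acat2, which makes acetoacetyl-CoA for Hmgcs1, was at 0.02 (adjusted p = 0.973, edgeR). That is nearer 0 than the estimate for Hmgcs1 itself, and whether these enzymes differed from each other was not tested.

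In the sterol arm, Msmo1 (-0.17), Sc5d (-0.11) and Erg28 (-0.13) had all RN mice below all RC mice, with adjusted p of 0.501, 0.685 and 0.701 (edgeR). Msmo1 removes the methyl groups at carbon 4, Sc5d puts in a double bond just before Dhcr7 acts, and Erg28 is a scaffold of the demethylation complex. Lbr and Tm7sf2, the pair of sterol 14-reductases that follow Cyp51, were at 0.08 and -0.08, Ebp, the sterol isomerase, at 0.03, Nsdhl at -0.10, Hsd17b7 at -0.09 and Pmvk at -0.14, with overlapping groups in each. Across all 20 enzymes 16 had log2 fold changes below 0, against 7355 of all 14956 tested genes. At an unadjusted p under 0.05, 3 were lower and 0 higher, against 6.33% and 5.44% of all tested genes. RN lay wholly below RC in 7 of the 20, against 8.12%.

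**Figure D3:**
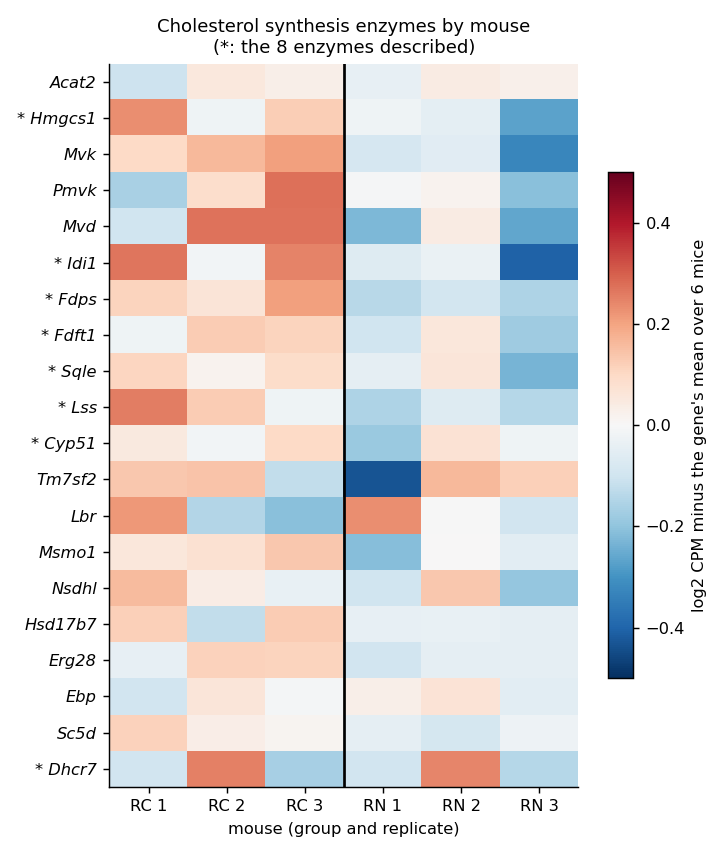
Log2 CPM of 20 enzymes (rows, in pathway order, the 8 described marked with a star) in the 6 mice (columns), minus each gene's mean over the 6. Red is above and blue below the mean, on a scale from -0.5 to 0.5. RN replicates 1 and 3 are mostly blue and RN replicate 2 is mixed.

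Averaged over the 8 enzymes, each centred on its mean log2 CPM over the 6 mice, RC replicates 1 to 3 stood at 0.11, 0.07 and 0.09 and RN replicates 1 to 3 at -0.10, 0.02 and -0.19. The RC mice lay close together, while RN replicate 2 lay nearer to RC than to RN replicate 3. The 3 enzymes up to farnesyl diphosphate (Hmgcs1, Idi1 and Fdps) averaged 0.20, 0.01 and 0.19 in RC and -0.07, -0.06 and -0.28 in RN. The 5 later ones averaged 0.06, 0.10 and 0.02 in RC and -0.12, 0.07 and -0.14 in RN, where RN replicate 2 fell inside the RC range.

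The enzymes varied together to unequal degrees. Over the 28 pairs of the 8, Pearson's r of log2 CPM across the 6 mice had a median of 0.59 and ran from -0.12 to 0.98. With each group's mean removed the median was 0.32 and 23 of 28 pairs stayed above 0. Hmgcs1 and Idi1 were the closest pair, at 0.98 over all mice and 0.96 within groups, and Idi1 and Sqle followed at 0.94 and 0.91. Dhcr7 stood apart, with r from -0.12 to 0.54 over all mice, and Lss was at -0.47 with Fdps within groups. These values describe 6 libraries that share a tissue and a scaling, and the genes are not independent of one another.

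Outside the 8, the genes whose log2 CPM followed the average of the 8 most closely over the 6 mice were Ccs (r = 0.99), a copper chaperone of superoxide dismutase, Glipr2 (r = 0.99), Thumpd2 (r = 0.99), Spaar (r = 0.98) and Cfap221 (r = 0.98). All RN mice lay below all RC mice in each of these 5. The average they were picked to follow separates the groups in the same way, so this was nearly fixed by the choice. Spaar was at most 1.96 CPM and Cfap221 at most 1.49 CPM in any mouse. They were picked as the highest of 14948 genes, of which 129 (0.863%) were above 0.9.

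Levels were compared between genes per kilobase of exon. In RC, Hmgcs1 was the most abundant at 39.5 ± 3.51 CPM per kb (SD, n = 3), followed by Fdft1 at 20.6 ± 1.15 and Cyp51 at 16.1 ± 0.635. Fdps at 11.6 ± 0.581, Sqle at 10.9 ± 0.347 and Idi1 at 10.9 ± 1.15 overlapped from each to the next, and Dhcr7 at 5.69 ± 0.916 and Lss at 1.92 ± 0.185 came last. In RN the order was nearly the same, with Hmgcs1 at 33.8 ± 3.10 CPM per kb at the top and Lss at 1.62 ± 0.0559 at the bottom. Among neighbours in that order only Sqle (9.88 ± 1.00) and Fdps (9.68 ± 0.219) overlapped. Idi1 (8.64 ± 1.19) lay below Fdps in every RN mouse but overlapped with Sqle.

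**Figure D4:**
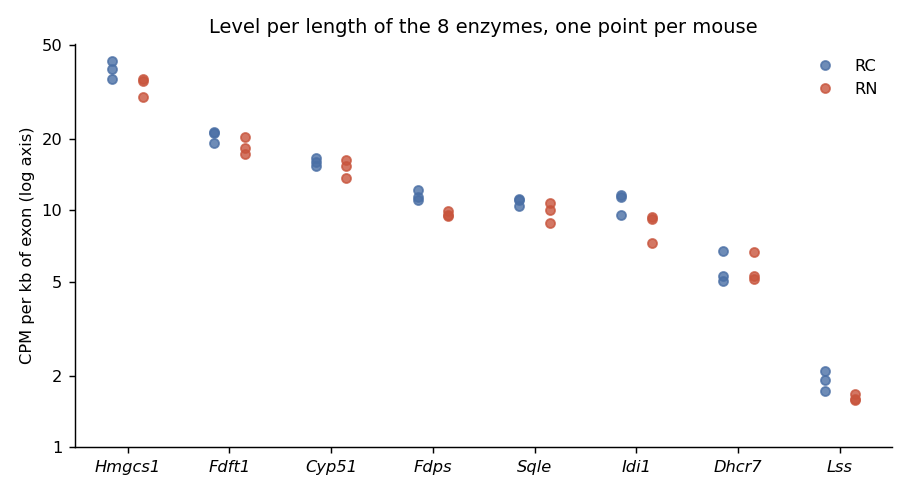
CPM per kilobase of exon (vertical log axis) of the 8 enzymes, ordered by their RC mean, with 1 point per mouse, RC in blue and RN in red. Hmgcs1 is highest and Lss lowest in both groups, with Fdps, Sqle and Idi1 close together in between.

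The regulators of the pathway gave 0 calls. Srebf2, which encodes SREBP2, was at 175, 178 and 169 CPM in RC mice against 157, 159 and 153 CPM in RN mice. The groups did not overlap, with a log2 fold change of -0.15 (SE 0.0742, adjusted p = 0.484, edgeR). Srebf1, whose products drive fatty acid genes, was at 143, 154 and 129 CPM in the RC mice and at 94.6, 132 and 118 CPM in the RN mice, at -0.31 (SE 0.133, adjusted p = 0.423, edgeR) with RN replicate 2 above RC replicate 3. The Srebf1 estimate was -0.10 once choroid plexus markers were a covariate. Of 13 regulators of SREBP processing and activity, 1 was lower at an unadjusted p under 0.05 (Srebf1), against 6.33% of all tested genes. The median of the 13 was -0.03.

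Sterol uptake and transport genes, 8 in all, had 0 calls, 0 at an unadjusted p under 0.05 and a median of 0.01. Stard4, a cytosolic sterol carrier and SREBP2 target, was at -0.27 (adjusted p = 0.470, edgeR), close to the values of Hmgcs1 and Fdps. Npc2 and Lrp1, which release and take up lipoprotein cholesterol, were at 0.18 and 0.22 (adjusted p = 0.625 and 0.591, edgeR).

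Genes of sterol efflux and of LXR response included a call. Lcat, which esterifies cholesterol on lipoproteins and is made by astrocytes in the brain, was at 37.5, 42.4 and 42.0 CPM in RC mice against 15.05, 18.3 and 17.4 CPM in RN mice. It was lower in RN by a log2 fold change of -1.26 (SE 0.117, adjusted p = 0.0160, edgeR). The adjusted p rose above 0.05 without RC replicate 1 (0.0528), RC replicate 2 (0.0750), RN replicate 2 (0.0721) or RN replicate 3 (0.0665), while the log2 fold change of Lcat stayed between -1.33 and -1.18 as each mouse was left out. With choroid plexus or myelin markers as a covariate it was -1.26 with an adjusted p of 0.119 or 0.111.

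Abcg1, a sterol exporter, was at 111, 113 and 108 CPM in the RC mice and at 145, 161 and 161 CPM in the RN mice, at 0.49 (SE 0.0813, adjusted p = 0.0696, edgeR). Mylip, which targets the LDL receptor for degradation, was at 21.2, 17.0 and 18.9 CPM in RC mice against 30.3, 29.4 and 29.6 CPM in RN mice, at 0.64 (SE 0.117, adjusted p = 0.0967, edgeR). Neither overlapped between groups or passed the threshold of a call, and neither reached a 2-fold change. DESeq2 gave them adjusted p of 4.43e-05 and 0.000921. Of the 7 genes of this list 1 was called, and the median was 0.23. At an unadjusted p under 0.05, 2 were higher and 1 lower, against 5.44% and 6.33% of all tested genes.

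Of 7 genes of sterol hydroxylation and esterification 0 were called. Lipa, the lysosomal acid lipase that frees cholesterol from its esters, was the 1 with an unadjusted p under 0.05, at 0.35 (SE 0.106, adjusted p = 0.225, edgeR) with no overlap. Of all tested genes, 5.44% were higher at that unadjusted p. Nceh1 and Cyp7b1 were at 0.11 and -0.28 (adjusted p = 0.674 and 0.686, edgeR).

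Among 11 genes of fatty acid synthesis and desaturation, 6 were lower and 0 higher at an unadjusted p under 0.05. The shares of all tested genes were 6.33% and 5.44%. Of the 11, 0 were called, and the median was -0.28, farther below 0 than that of the 8 cholesterol enzymes. Estimates were above 0 for 3 genes, Acly at 0.16, Acaca at 0.12 and Fasn at 0.04 (adjusted p = 0.648, 0.642 and 0.923, edgeR). In Acaca all RN mice lay above all RC mice. Me1, malic enzyme, a source of NADPH, was at 139, 157 and 142 CPM in the RC mice and at 109, 114 and 109 CPM in the RN mice, at -0.40 (SE 0.0830, adjusted p = 0.124, edgeR). Fads2 and Elovl5, a desaturase and an elongase of polyunsaturated fatty acids, were at -0.34 and -0.28 (adjusted p = 0.173 and 0.218, edgeR), and neither overlapped between groups. DESeq2 gave adjusted p of 0.00315 for Me1, 0.0246 for Fads2 and 0.0942 for Elovl5. By DESeq2, 2 of the 11 had an adjusted p under 0.05, against 480 of all 14956 tested genes. The difference between this list and the cholesterol enzymes was not tested.

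The 8 genes of the other branches from farnesyl diphosphate, for prenylation, ubiquinone and dolichol, had 0 calls, 0 at an unadjusted p under 0.05 and a median of 0.00. Fntb, Pdss2 and Pggt1b, those of smallest p, were at 0.18, -0.21 and -0.22.

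**Figure D5:**
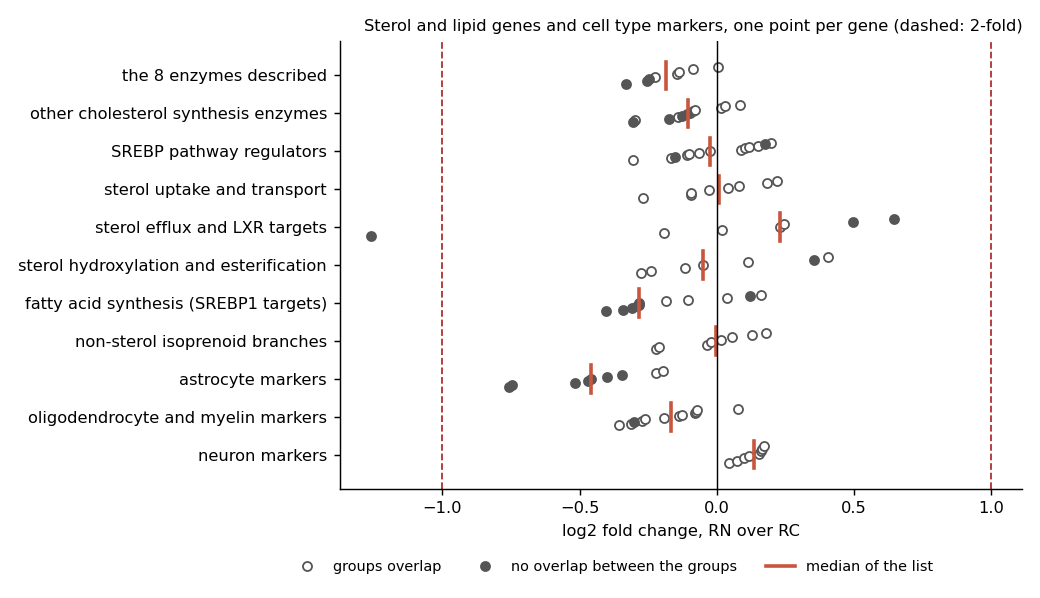
Log2 fold change of RN over RC (horizontal axis), 1 point per gene, for the 8 enzymes, the other lists of sterol and lipid genes and 3 lists of cell type markers. Filled points are genes whose groups do not overlap, red bars are list medians, and dashed lines are a 2-fold change. Lcat lies beyond the dashed line on the left, and the medians of the 8 enzymes (-0.18), of fatty acid synthesis (-0.28) and of astrocyte markers (-0.46) lie below 0.

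Markers of the cell types that make cholesterol were read beside the enzymes. The 9 astrocyte markers summed to between 5981 and 7671 CPM in RC and between 4113 and 5286 CPM in RN, without overlap. Of the 9, 6 were lower at an unadjusted p under 0.05, against 6.33% of all tested genes. RN lay wholly below RC in 7 of 9, against 8.12%. Of these markers 0 were called, and their median was -0.46. Aldoc and Aqp4 were at -0.76 and -0.75 (adjusted p = 0.0836 and 0.124, edgeR), and Sox9 at -0.52 (adjusted p = 0.106, edgeR). DESeq2 gave these 3 adjusted p of 2.11e-05, 0.000519 and 0.00373, in order. By DESeq2, 5 of the 9 had an adjusted p under 0.05, against 480 of all 14956 tested genes. The 12 oligodendrocyte and myelin markers summed to between 12484 and 16122 CPM in RC and between 10032 and 13656 CPM in RN, with overlap. Their median was -0.17 and 0 were called. At an unadjusted p under 0.05, 1 of 12 was lower (Mobp, -0.36), against 6.33% of all tested genes. With the replicate number as a block 4 of 12 were at an unadjusted p under 0.05, and 8 of the 9 astrocyte markers. The 4 were Mobp, Mog, Mal and Aspa, named after their values were seen and all lower in RN. With that block 2034 of all 14956 tested genes had such a p, in either direction. No marker of either list was at 0 in every mouse. The part of either cell type in the lower enzyme levels was not tested.

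With the mean log2 CPM of the myelin markers as a covariate the median of the 8 enzymes was -0.16, and 1 of them kept an unadjusted p under 0.05 (Fdps). With that of the choroid plexus markers the median was -0.17 and 2 of them did, Fdps at -0.36 and Idi1 at -0.52. In the same fit Lss was nearer 0, at -0.11, and Dhcr7 farther above it, at 0.29. Of all 14956 tested genes, 1160 had an unadjusted p under 0.05 with the myelin covariate, in either direction. With the choroid plexus covariate 1370 did. Sums of the choroid plexus markers did not overlap between the groups, so this covariate and the virus are poorly separated. Markers of neurons had a median of 0.14 with 0 of 8 at an unadjusted p under 0.05, and their sums ran from 4178 to 5060 CPM in RC and from 4800.0 to 5149 CPM in RN. The 6 endothelial markers summed to between 286 and 330 CPM in RC and between 199.8 and 258 CPM in RN. Of these, 3 of 6 were lower at an unadjusted p under 0.05, against 6.33% of all tested genes. The 8 microglia markers summed to between 1332 and 1463 CPM in RC and between 1153 and 1602 CPM in RN. The 5 ependymal markers summed to between 92.0 and 104 CPM in RC and between 44.0 and 60.4 CPM in RN, and the 6 markers of oligodendrocyte precursors and newly formed oligodendrocytes to between 559.7 and 680.3 CPM and between 534 and 744 CPM.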

How the data were processed

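The authors deposited whole-number read counts per gene for thalamus tissue of 3 RC and 3 RN mice, 1 column per mouse, without normalization. Libraries were made with the NEBNext Ultra RNA kit and sequenced on a NovaSeq instrument. The submitters' processing notes name fastp 0.18.0, FastQC, HISAT2, RSEM 1.2.19 and the mouse build GRCm39; which tool made the counts, and whether strand was used, is not given in the sources used here. Reads shared by overlapping genes may therefore be split in unknown ways. Samples were grouped by the virus in their labels. The study describes them as mice and mentions no pooling, so p-values measure the spread between these 6 samples.

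Genes of low count were removed with filterByExpr (minimum count 10), TMM scaling was applied, and edgeR 4.0.16 in R 4.3.3 compared RN with RC by its quasi-likelihood test, with no covariate, over 14956 genes. P-values were adjusted by Benjamini-Hochberg over all of them. Prior counts were 2 for log2 CPM and 0.125 for log2 fold changes. Standard errors are the size of the log2 fold change divided by the square root of F. Levels per kb used exon lengths from GENCODE M21, found for 20 of 20 enzymes, and promoters came from RefSeq. DESeq2 1.42.0, other filters and scalings, the replicate block, marker scores as covariates and leaving out each mouse were alternatives. A few genes of the pathway are not reported here. Scripts were tested on simulated counts.

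The enzymes, lists and alternatives were chosen with earlier results of these data known. Named were the 8 enzymes, the other listed enzymes, up to 3 genes of smallest p in each other list, the 5 genes most like the average of the 8, and Neurod1. Acly, Acaca and Fasn were named after their values were seen and were not followed over the alternatives. RC and RN share replicate numbers in the labels, which do not say what a number marks. Mice of the same number deviated together from their group means, with correlations across genes of 0.173, 0.120 and 0.209, all above 0.1, and RC replicate 1 with RN replicate 2 at 0.156. The numbers were therefore treated only as a possible pairing. The main test left them out, and the fit with the replicate block was an alternative.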

Additional observations from a re-analysis of the deposited data

How the results depend on the processing

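Over 15 alternatives the 8 enzymes gave 0 calls, and 7 of them stayed below 0 in all 15, with adjusted p of at least 0.269. Over all genes edgeR called 9 higher and 2 lower, DESeq2 98 and 81, edgeR without a filter 36 and 7, and edgeR with the replicate block 17 and 5. With the replicate block the 8 enzymes again had 0 calls, 2 at an unadjusted p under 0.05 and a median of -0.18. Of all 14956 tested genes, 2034 had such a p with the block, in either direction. The block changed no call named here. The count of enzymes lower at an unadjusted p under 0.05 was 1 with the myelin covariate and ran from 0 to 3 as each mouse was left out, the count without overlap from 3 to 6, and the median of the other 12 enzymes from -0.16 to -0.063. Leaving out 1 mouse turned the sign of estimates near 0, over ranges from -0.13 to 0.14 for Dhcr7, -0.031 to 0.046 for Acat2, -0.19 to 0.086 for Tm7sf2, -0.016 to 0.23 for Lbr, -0.0096 to 0.069 for Ebp and -0.051 to 0.28 for Pdgfra. With the choroid plexus covariate Tm7sf2 was at 0.16, Cspg4 at 0.041, Tubb3 at -0.038 and Stmn2 at -0.071, each of the opposite sign. The cause of these shifts was not tested. With 3 mice a group, the intervals of 6 of the 8 enzymes held 0.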
